A study of Mus musculus with 9 samples.

Results

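The guanylate-binding proteins (GBPs) and the immunity-related GTPases (IRGs) are interferon-inducible GTPases of the macrophage's own defence against microbes. They were followed here through 10 genes chosen by symbol: the GBP genes Gbp2, Gbp3, Gbp5, Gbp7 and Gbp9, and the IRG genes Irgm1, Irgm2, Igtp, Iigp1 and Tgtp2. All 10 had a row among the 13593 genes of the count table, and all 10 were among the 12915 genes kept for testing by a filter on low counts. The cells were bone marrow-derived macrophages of 6-week-old wild-type C57BL/6 mice, grown for 7 days with 15% supernatant of L929 cells, a fibroblast line that releases macrophage growth factor. They then received CCL26, CX3CL1 or bovine serum albumin (BSA, the protein control), each at 4 nM for 4 h, with 3 RNA-seq libraries a group. The series title names CCL26 and CX3CL1 as ligands of the chemokine receptor CX3CR1, and the design compares how macrophages respond to each. The labels give no species or maker for the chemokines and do not say whether replicates were separate mice or cultures. The p-values thus reflect how far these libraries vary, and that variation can be technical.

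Total counts ran from 16923982 to 23198324 per library. CX3CL1 replicate 1 stood apart: 1193 genes had no count in it, against 80 to 170 elsewhere, and it correlated with the rest at a mean of 0.899, against 0.97 to 0.974 for the other 8. The standard errors of all 10 genes in CCL26 over BSA were smaller when it was left out, so calls are given with all 9 libraries and without it. Of 10 macrophage markers all 10 were measured. Their summed level was 24250 to 24730 CPM (counts scaled to a common library size) in CCL26 libraries, 28150 to 42940 CPM in CX3CL1 libraries, with replicate 1 the highest, and 29940 to 30470 CPM in BSA libraries. None of 12 T and NK cell markers had a value in the table, Cd3e, Ncr1 and Nkg7 included. Of 6 markers of plasmacytoid dendritic cells, which can release interferon, 3 had values but not Siglech, Ccr9 or Pacsin1. Their sum was 345.8 to 411.7 CPM in CCL26 libraries, 347.7 to 885.2 CPM in CX3CL1 libraries, with replicate 1 the highest, and 364.7 to 384.6 CPM in BSA libraries. Most of it was Bst2, with a mean of 297.2 CPM with CCL26 and 304.6 CPM with BSA, and 841.4 CPM in CX3CL1 replicate 1. The sum thus mainly follows 1 gene and is not a measure of that cell type. Granulocyte markers (7 of 10 with values, not Ly6g, Retnlg or Cxcr2) summed to 77.4 to 82.8 CPM in CCL26 libraries, 68.8 to 178.6 CPM in CX3CL1 libraries and 64.2 to 69.5 CPM in BSA libraries, and 2 of 7 were called higher in CCL26 over BSA without CX3CL1 replicate 1. The 6 inflammatory monocyte markers summed to 75.7 to 85.7 CPM in CCL26 libraries, 74.7 to 86.4 CPM in CX3CL1 libraries and 87.8 to 95.6 CPM in BSA libraries, and 1 of 6 was called lower in that fit. Of all tested genes, 9.74% were called higher and 9.26% lower in it. Both marker lists are too short to set their counts apart from these shares. The part of these cell types in the results was not tested. In bulk RNA, fewer cells of a type and less RNA per cell cannot be told apart.

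Both families act inside the cell, mainly on vacuoles that hold bacteria or parasites and on the microbes themselves. GBPs are large GTPases related to dynamin that assemble on pathogen membranes, help to rupture vacuoles and expose bacterial lipopolysaccharide and DNA to inflammasomes. IRGs fall into regulators, which sit on the membranes of the host's organelles and keep the system in check there (Irgm1, Irgm2 and Igtp, also called Irgm3), and effectors, which load onto the pathogen's vacuole (Iigp1, also called Irga6, and Tgtp2, a gene for Irgb6). In macrophages, interferons induce both through transcription factors that bind gamma-activated sites and interferon-stimulated response elements in the genes' promoters.

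The GBP and IRG genes were higher with CCL26 than with either CX3CL1 or BSA. For all 10 genes every CCL26 library lay above every BSA library, an order that 16.6% of tested genes showed. For all 10 every CCL26 library also lay above every CX3CL1 library, against 12.9% of tested genes. With all 9 libraries, Gbp2, Gbp5 and Gbp7 rose in CCL26 over BSA, which is 3 of 10 genes where 0.387% of tested genes were called higher (quasi-likelihood test of edgeR, p adjusted by Benjamini-Hochberg, threshold 0.05). Without CX3CL1 replicate 1, 9 of 10 rose, all but Gbp9, against 9.74% of tested genes. None was called lower in either fit, where 0.0465% and 9.26% of tested genes were. DESeq2 on all 9 libraries called 9 of 10 higher, against 1.29% of tested genes. The median log2 fold change of the 10 was 1.39, against 0.0044 over all tested genes. Together the 10 genes had 345.8, 348.2 and 319.4 CPM in the CCL26 libraries, 138.7, 163.6 and 151.8 CPM in the CX3CL1 libraries and 162.1, 163.9 and 162.9 CPM in the BSA libraries. The CCL26 sum was thus 2.07 times the BSA sum and 2.23 times the CX3CL1 sum.

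**Figure D1:**
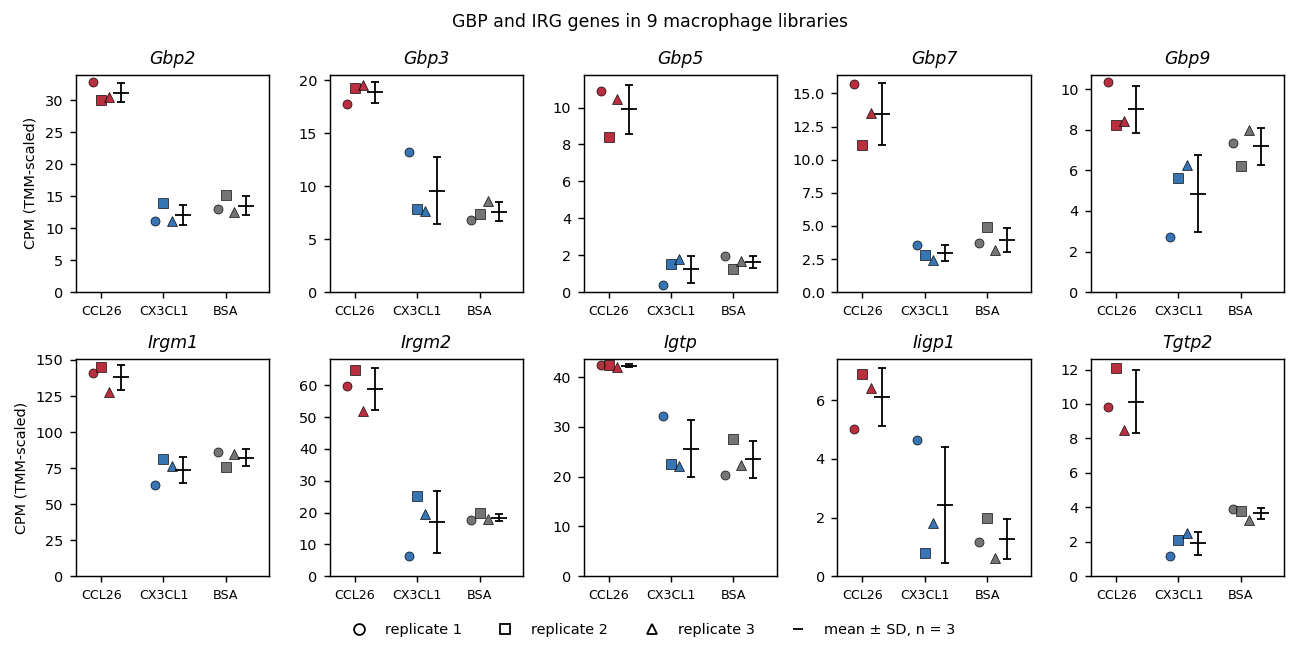
Level of each of the 10 GBP and IRG genes (CPM with library sizes scaled by TMM, linear axes from 0) in the 3 libraries of each group, with the mean and SD beside the points. The 3 CCL26 libraries lie above all 6 others in every panel, by the least for Gbp9, and CX3CL1 replicate 1 (circle) lies away from its replicates for Irgm2, Iigp1, Gbp3 and Gbp9.

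The promoters of the genes that moved together are shown because they hold the interferon motifs named above. RefSeq windows on GRCm38.p6, from 250 bases before to 50 bases after the transcription start, were at hand for 8 of the 10 genes, without Gbp9 and Iigp1. The core of the interferon-stimulated response element was searched as GAAA, any 2 bases and GAAA again, and the gamma-activated site as TTCNNNGAA, both on either strand, where N is any base. Each line gives the stretch that holds all matches, 5′ to 3′ on the gene's strand, with matched letters in capitals. On the opposite strand the core reads TTTC, any 2 bases and TTTC, the form seen in the 4 GBP promoters.
Gbp5, chr3:142496684-142496900, + strand: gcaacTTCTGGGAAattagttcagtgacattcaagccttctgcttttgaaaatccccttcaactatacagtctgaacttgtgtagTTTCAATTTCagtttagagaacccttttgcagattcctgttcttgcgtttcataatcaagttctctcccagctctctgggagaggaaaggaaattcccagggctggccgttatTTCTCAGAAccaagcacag
Gbp7, chr3:142530220-142530302, + strand: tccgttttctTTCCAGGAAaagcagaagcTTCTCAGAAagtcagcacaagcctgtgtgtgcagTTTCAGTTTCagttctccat
Gbp3, chr3:142559989-142560024, + strand: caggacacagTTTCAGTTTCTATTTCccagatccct
Gbp2, chr3:142620594-142620623, + strand: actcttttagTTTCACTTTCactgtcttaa
Irgm1, chr11:48871428-48871457, - strand: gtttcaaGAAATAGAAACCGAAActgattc
Tgtp2, chr11:49064263-49064303, - strand: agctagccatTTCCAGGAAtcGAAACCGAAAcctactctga
Igtp, chr11:58199501-58199541, + strand: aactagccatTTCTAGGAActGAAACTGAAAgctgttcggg
Irgm2, chr11:58214892-58214932, + strand: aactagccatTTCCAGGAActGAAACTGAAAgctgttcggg

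The response-element core was found in a window of all 8 genes, against 3.44% of 32851 promoter windows in the RefSeq table. Counted by gene, as the 8 are, it was found for 3.91% of 9969 genes of the count table. Gbp3 has a second RefSeq start, whose window held neither motif. In Gbp3 and Irgm1 a pair of overlapping cores formed 3 repeats of the GAAA half-site, and in 7 of the 8 genes the core lay within 70 bases of the RefSeq start. Gbp5 was the exception, with its core at -165 to -156. The annotation GENCODE M21 draws some genes from another start, and the cores of Gbp5, Gbp2, Irgm1 and Irgm2 lie inside its genes. For Irgm2 that gene begins at chr11:58199618, far before the core at chr11:58214913-58214922. The gamma-activated site pattern was found in 5 of the 8, namely Gbp5, Gbp7, Tgtp2, Igtp and Irgm2, against 8.3% of windows and 8.24% of the 9969 genes. Both motifs were in 0.454% of windows, and 0.502% of the 9969 genes had such a window. Tgtp2, Igtp and Irgm2 shared one arrangement, the gamma-activated site followed after 2 bases by the core. That arrangement was searched after these promoters had been read, and it occurred in 5 of 32851 windows, the other 2 being those of Tgtp1 and Gm12185 in the same families. A match is a run of letters and not a measured binding site.

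**Figure D2:**
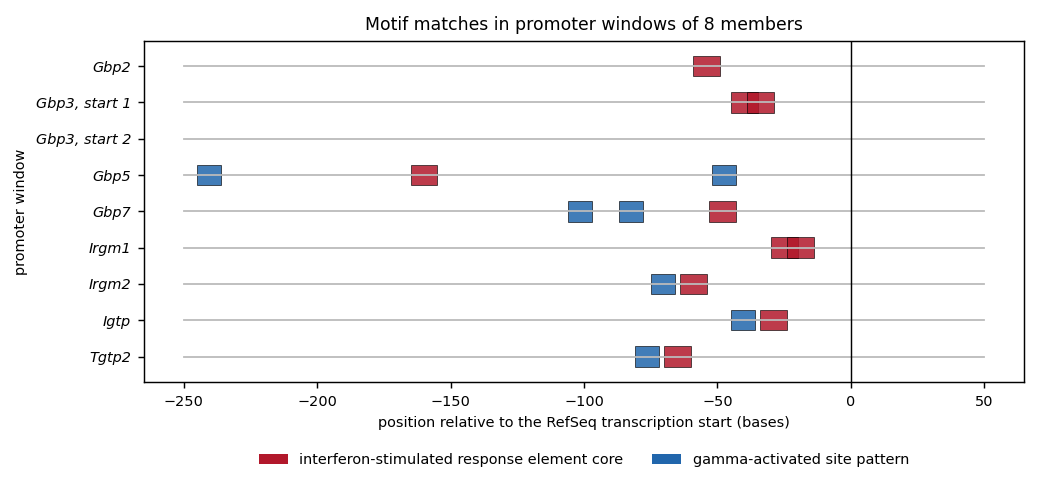
Position of each match to the interferon-stimulated response element core (red) and to the gamma-activated site pattern (blue) along the RefSeq promoter windows of 8 genes, in bases from the transcription start. The core lies close to the start in 7 genes and at -165 to -156 in Gbp5, and the 2 motifs lie side by side in Tgtp2, Igtp and Irgm2.

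Among the GBPs, Gbp5 had the largest log2 fold change over BSA. This GBP is tied to inflammasome activation, and its protein is prenylated, as is that of Gbp2. Gbp5 had 10.9, 8.40 and 10.5 CPM in CCL26 libraries, against 1.95, 1.27 and 1.70 CPM in BSA libraries. The groups were far apart, and Gbp5 was 6.03-fold higher with CCL26 (log2 fold change 2.59 ± 0.43 SE, adjusted p = 0.0494). Its log2 fold change was 2.595 ± 0.23 and its adjusted p 6.65e-09 when CX3CL1 replicate 1 was left out.

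Gbp7, which lies beside Gbp5 and restricts intracellular bacteria and parasites in mice, had 15.7, 11.1 and 13.5 CPM in CCL26 libraries, against 3.69, 4.95 and 3.17 CPM in BSA libraries. Its lowest CCL26 library stood far above its highest BSA library, and it rose 3.41-fold (log2 fold change 1.77 ± 0.25, adjusted p = 0.0241), or by 1.77 ± 0.19 on the log2 scale without CX3CL1 replicate 1 (adjusted p = 2.16e-07). Gbp2, which coats parasite vacuoles and cytosolic bacteria, was the most abundant GBP gene in CPM per kb. Its values were 32.9, 30.0 and 30.6 CPM in CCL26 libraries, against 12.9, 15.2 and 12.5 CPM in BSA libraries. The spread within each group was small beside the gap between groups, and Gbp2 rose 2.30-fold (log2 fold change 1.203 ± 0.15, adjusted p = 0.0159), or by 1.21 ± 0.12 on the log2 scale without CX3CL1 replicate 1 (adjusted p = 3.28e-08).

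Gbp3, in the same gene cluster, had 17.7, 19.3 and 19.6 CPM in CCL26 libraries, against 6.82, 7.39 and 8.61 CPM in BSA libraries. The groups did not overlap, but the adjusted p was 0.0629 with all 9 libraries for a log2 fold change of 1.31 ± 0.23. In CX3CL1 replicate 1 Gbp3 was the highest of its group, and without that library the log2 fold change was 1.315 ± 0.14 and the adjusted p 1.27e-07. Gbp9 is encoded in another GBP cluster, on chromosome 5. It had 10.3, 8.25 and 8.41 CPM in CCL26 libraries, against 7.34, 6.22 and 7.98 CPM in BSA libraries, so the groups came close to each other without overlapping. Its log2 fold change was 0.33 ± 0.29 (adjusted p = 1.0) with all 9 libraries and 0.33 ± 0.17 (adjusted p = 0.194) without CX3CL1 replicate 1, where its 95% interval ran from -0.019 to 0.68.

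Among the IRGs, none of 5 was called over BSA with all 9 libraries and all 5 were called higher without CX3CL1 replicate 1. Of all tested genes, 0.387% and 9.74% were called higher in these fits. Irgm1, which controls autophagy and the activity of other IRGs and is needed for resistance to mycobacteria in mice, had 141.1, 144.8 and 128.1 CPM in CCL26 libraries, against 86.3, 75.6 and 84.8 CPM in BSA libraries. The groups were far apart, and the log2 fold change was 0.75 ± 0.13 (adjusted p = 0.0629), or 0.75 ± 0.06 (adjusted p = 2.49e-09) without CX3CL1 replicate 1. Irgm2, a regulator found at the Golgi that restrains caspase-11 inflammasome activation, had 59.8, 64.9 and 52.0 CPM in CCL26 libraries, against 17.6, 19.9 and 17.9 CPM in BSA libraries. Every CCL26 library stood far above all BSA libraries, yet the adjusted p was 0.236 with all 9 libraries for a log2 fold change of 1.67 ± 0.40. In CX3CL1 replicate 1 Irgm2 was at 6.225 CPM, against 25.2 and 19.6 CPM in the other CX3CL1 libraries. With that library left out, the log2 fold change was 1.68 ± 0.11 and the adjusted p 1.1e-11.

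Igtp, the regulator found at the endoplasmic reticulum, had 42.5, 42.4 and 42.0 CPM in CCL26 libraries, against 20.4, 27.6 and 22.4 CPM in BSA libraries. The CCL26 libraries were almost equal, and the log2 fold change was 0.85 ± 0.18 (adjusted p = 0.156), or 0.85 ± 0.10 (adjusted p = 8.26e-07) without CX3CL1 replicate 1.

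The 2 effectors were the scarcest of the 5 IRG genes. Their log2 fold changes were above those of the regulators Irgm1 and Igtp, while that of the regulator Irgm2 lay between them. Iigp1, which destroys the vacuole of Toxoplasma, had 5.01, 6.91 and 6.41 CPM in CCL26 libraries, against 1.18, 1.99 and 0.623 CPM in BSA libraries. These CPM came from 113, 144 and 118 counts in CCL26 libraries, against 23, 39 and 11 counts in BSA libraries. The log2 fold change was 2.26 ± 0.61 (adjusted p = 0.346), or 2.26 ± 0.34 (adjusted p = 2.2e-05) without CX3CL1 replicate 1. Tgtp2 had 9.85, 12.1 and 8.47 CPM in CCL26 libraries, against 3.90, 3.77 and 3.28 CPM in BSA libraries. The groups were well separated, with a log2 fold change of 1.47 ± 0.28 (adjusted p = 0.0819), or 1.47 ± 0.20 (adjusted p = 4.71e-06) without CX3CL1 replicate 1.

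The 3 calls made with all 9 libraries were lost when any 1 of the 6 CCL26 and BSA libraries was left out while CX3CL1 replicate 1 stayed in. The call of Gbp5 was also lost without CX3CL1 replicate 2 (adjusted p = 0.0835). In the fits without CX3CL1 replicate 1, the same 9 of 10 genes were called higher again whichever of the other 8 libraries was dropped as well.

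**Figure D3:**
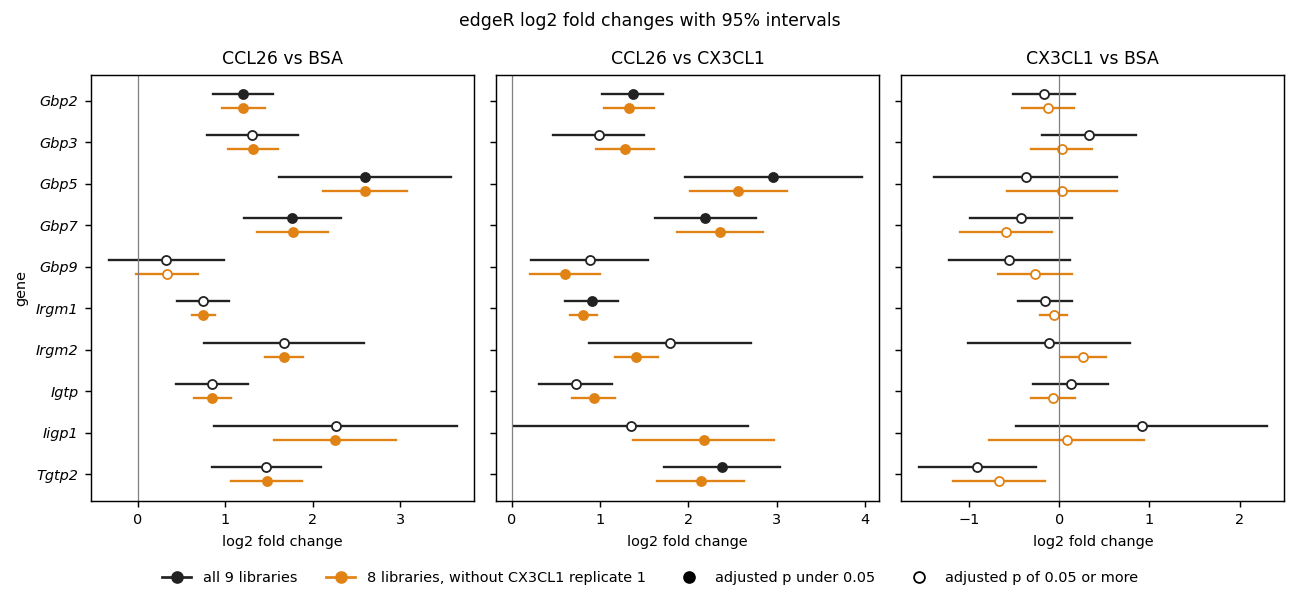
Log2 fold change (x axis, edgeR) with its 95% interval for each gene in the 3 comparisons, from all 9 libraries (black) and without CX3CL1 replicate 1 (orange); filled points have an adjusted p below 0.05. Against BSA the CCL26 points hardly move between fits while the intervals narrow, and the CX3CL1 points lie around 0 with no filled point.

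CX3CL1 gave no call in these genes. With all 9 libraries 0 of 10 genes were called in CX3CL1 over BSA by edgeR, as were 0.0% of tested genes in either direction, while 405 genes had an unadjusted p below 0.05. DESeq2 also called 0 of 10. The count was again 0 of 10 without CX3CL1 replicate 1, against 0.0227% of tested genes called higher and 0.31% called lower. The median log2 fold change of the 10 was -0.16, against -0.0051 over all tested genes, and without CX3CL1 replicate 1 it was -0.067, against -0.0015.

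Tgtp2 was the gene farthest below the control. It had 1.19, 2.08 and 2.49 CPM in CX3CL1 libraries, against 3.90, 3.77 and 3.28 CPM in BSA libraries, and was the only 1 of the 10 whose CX3CL1 and BSA libraries did not overlap. Among tested genes 6.93% had all CX3CL1 libraries below all BSA libraries and 4.77% above them. Its log2 fold change was -0.91 ± 0.29, with an unadjusted p of 0.0115 and an adjusted p of 0.711. It was -0.66 ± 0.25 (adjusted p = 0.504) without CX3CL1 replicate 1. Gbp7 had 3.58, 2.84 and 2.45 CPM in CX3CL1 libraries, so its highest library lay within the BSA range, and its log2 fold change was -0.42 ± 0.25 (adjusted p = 0.711), or -0.59 ± 0.25 (adjusted p = 0.596) without CX3CL1 replicate 1.

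Gbp2 had 11.1, 13.9 and 11.1 CPM in CX3CL1 libraries, a log2 fold change over BSA of -0.17 with a 95% interval from -0.51 to 0.18. Irgm1 had 63.3, 81.3 and 76.5 CPM and a log2 fold change of -0.16, with an interval from -0.46 to 0.14. Both intervals lie below the log2 fold change of the same gene with CCL26 over BSA. Without CX3CL1 replicate 1 the log2 fold changes were -0.12 for Gbp2 (interval -0.41 to 0.16) and -0.061 for Irgm1 (-0.21 to 0.089). The values of Iigp1 and Irgm2 turned on that library. Iigp1 had a log2 fold change of 0.91 (interval -0.48 to 2.30) with it and 0.083 (-0.77 to 0.94) without it. Irgm2 had -0.12 (-1.01 to 0.78) with it and 0.27 (0.016 to 0.52, adjusted p = 0.635) without it.

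CX3CL1 replicate 1 did not move the 10 genes one way. Relative to its 2 replicates it was lower in Gbp5 (0.397 CPM, against 1.505 and 1.82 CPM), Gbp9 (2.71 CPM, against 5.62 and 6.25 CPM), Irgm1, Irgm2 and Tgtp2. It was higher in Gbp3 (13.2 CPM, against 7.87 and 7.65 CPM), Gbp7, Igtp (32.3 CPM, against 22.5 and 22.2 CPM) and Iigp1 (4.64 CPM, against 0.810 and 1.82 CPM). In Gbp2 it lay between them. The remaining pair of CX3CL1 libraries together stood at 0.968 times the BSA sum of the 10 genes.

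Between the chemokines, CCL26 gave the higher level in all 10 genes. With all 9 libraries 5 of 10 were called higher in CCL26 over CX3CL1, namely Gbp2, Gbp5, Gbp7, Irgm1 and Tgtp2, where 0.395% of tested genes were. All 10 were called higher without CX3CL1 replicate 1, against 5.47% of tested genes. DESeq2 on all 9 libraries called 8 of 10, against 1.42% of tested genes. Gbp5 was 7.79-fold higher with CCL26 than with CX3CL1 (log2 fold change 2.96 ± 0.44, adjusted p = 0.0274) with all 9 libraries and 5.92-fold higher without CX3CL1 replicate 1. Tgtp2 was 5.20-fold higher (log2 fold change 2.38 ± 0.29, adjusted p = 0.0101) and Gbp7 4.56-fold higher (2.19 ± 0.25, adjusted p = 0.0101) with all 9 libraries. Gbp2 was 2.59-fold higher (log2 fold change 1.37 ± 0.15, adjusted p = 0.00834). Irgm1 was 1.87-fold higher (0.90 ± 0.13, adjusted p = 0.026). When CX3CL1 replicate 1 was left out these folds were 4.41 for Tgtp2, 5.12 for Gbp7, 2.51 for Gbp2 and 1.75 for Irgm1.

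The other 5 genes had log2 fold changes over CX3CL1 from 0.72 for Igtp to 1.79 for Irgm2 with all 9 libraries, and adjusted p-values from 0.186 to 0.423. Igtp had the smallest log2 fold change of the 10 in that fit, and Gbp9 the smallest when CX3CL1 replicate 1 was left out. For Gbp9 the log2 fold change was 0.88 ± 0.29 (adjusted p = 0.423) with all 9 libraries and 0.60 ± 0.19 (adjusted p = 0.0495) without CX3CL1 replicate 1, and its call was lost when any 1 of 7 further libraries was left out. With CX3CL1 replicate 1 kept, leaving out 1 other library left from 0 to 3 of the 5 calls. The count of 0 was without CCL26 replicate 1. CCL26 over BSA and CCL26 over CX3CL1 share the CCL26 libraries, so the comparisons are not independent.

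Levels of different genes were compared as CPM per kb of annotated exon. In CCL26 libraries Irgm1 was highest at 23.8 ± 1.5 CPM per kb (SD, n = 3), followed by Igtp at 20.9 ± 0.14, Irgm2 at 16.0 ± 1.8 and Gbp2 at 12.4 ± 0.60, and none of these neighbours overlapped. Below Gbp3 (5.78 ± 0.30) and Tgtp2 (3.45 ± 0.62) came Gbp7 (2.39 ± 0.41), Gbp9 (1.74 ± 0.22) and Gbp5 (1.49 ± 0.20), whose neighbours in this order overlapped. Iigp1 was last at 1.05 ± 0.17.

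In CX3CL1 libraries Irgm1 (12.7 ± 1.6 CPM per kb; SD, n = 3) and Igtp (12.7 ± 2.8) overlapped, and Gbp5 came last at 0.187 ± 0.11, below Iigp1. In BSA libraries Irgm1 stood at 14.2 ± 1.0 and Igtp at 11.6 ± 1.9, and their ranges overlapped. Gbp2 at 5.38 ± 0.58 and Irgm2 at 5.002 ± 0.34 came next and overlapped as well, unlike with CCL26, where Irgm2 stood above Gbp2. Gbp3 stood alone at 2.33 ± 0.28. Gbp9 (1.39 ± 0.17) and Tgtp2 (1.24 ± 0.11) overlapped, Gbp7 followed at 0.701 ± 0.16, and Gbp5 (0.247 ± 0.051) and Iigp1 (0.217 ± 0.12) closed the order with overlapping ranges. The CX3CL1 order was that of BSA from Irgm1 down to Gbp7.

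By family, the 5 GBP genes together stood at 82.4 ± 5.2 CPM with CCL26, 30.7 ± 1.3 CPM with CX3CL1 and 33.9 ± 1.2 CPM with BSA. The 5 IRG genes stood at 255.4 ± 17.3 CPM with CCL26, 120.7 ± 12.2 CPM with CX3CL1 and 129.1 ± 0.26 CPM with BSA (SD, n = 3 each).

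The genes lie in clusters on the genome (GENCODE M21 on GRCm38). Gbp5 (chr3:142493978-142522344), Gbp7 (chr3:142530342-142550149), Gbp3 (chr3:142560026-142573209) and Gbp2 (chr3:142620602-142638008) follow each other on the + strand, while Gbp9 (chr5:105077630-105139539, - strand) shares its cluster with Gbp4, Gbp6 and Gbp8. On chromosome 11, Irgm1 (chr11:48861968-48871683) and Tgtp2 (chr11:49057194-49064206) lie on the - strand of one cluster. Igtp (chr11:58199556-58207591) and Irgm2 (chr11:58199618-58222782) overlap on the + strand of another. Iigp1 (chr18:60376027-60392634, + strand) lies apart from both. All 10 are annotated as protein coding.

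Gene copies limit how far some values belong to a single gene. As a measure, the share of 100-base stretches of each gene's transcripts that occur unchanged in another gene was counted. It was 76.8% for Tgtp2, nearly all with Tgtp1, which had no value of its own here, so the Tgtp2 values are uncertain. It was 10.01% for Gbp7, mostly with the overlapping gene model Gm43802, 5.16% for Igtp and 3.01% for Irgm2, which share an exon, and at most 1.65% for each of the other 6. Summing Igtp and Irgm2 gave 102.3, 107.3 and 93.9 CPM in CCL26 libraries, against 37.96, 47.5 and 40.3 CPM in BSA libraries. This sum does not depend on how counted reads were divided between the pair, but shared reads left uncounted would be missing from it. The column headers carry the name of STAR's own per-gene count output, and the submitters' notes also list featureCounts. How reads with several matches were counted and whether strand was used are not stated.

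The same families had 14 further rows in the table. Of the 3 GBP and 8 IRG rows among them, 1 of 11 was called higher in CCL26 over BSA with all 9 libraries and 7 of 11 without CX3CL1 replicate 1, against 0.387% and 9.74% of all tested genes, and none was called lower. The called row was Gm12250, which RefSeq lists under the synonym Irgb10, an effector that helps to open bacterial membranes, and which GENCODE M21 annotates as a processed pseudogene. Gm12250 had 26.6, 21.2 and 23.1 CPM in CCL26 libraries, 9.54, 5.15 and 4.86 CPM in CX3CL1 libraries and 3.85, 4.23 and 4.64 CPM in BSA libraries. Its CCL26 libraries stood far above the rest, with a log2 fold change over BSA of 2.48 ± 0.27 (adjusted p = 0.00777) and over CX3CL1 of 1.86 ± 0.27 (adjusted p = 0.0232).

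Without CX3CL1 replicate 1 the other called GBP and IRG rows were Gbp6 (log2 fold change over BSA 2.46), Gm4951 (2.26), Gm5431 (1.63), Ifi47 (1.33), 9930111J21Rik1 (0.83) and 9930111J21Rik2 (0.68). Gbp6 rested on 58, 38 and 37 counts in CCL26 libraries, against 18, 2 and 2 counts in BSA libraries, and shares 64.5% of its stretches with other genes. Gbp4 (0.71), Gbp8 (0.57), Gm12185 (0.46) and Irgq (0.07) were not called in either fit. Irgq is a quasi-GTPase linked to autophagy, and its values of 44.1, 44.1 and 42.3 CPM in CCL26 libraries overlapped the 39.1, 40.1 and 45.7 CPM of BSA libraries.

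The 3 very large inducible GTPase rows, relatives of GBPs whose function is little known, were all called higher over BSA without CX3CL1 replicate 1 and none of them with all 9 libraries. The shares of all tested genes were 9.74% and 0.387%. Gm8995 had 136.8, 131.2 and 112.0 CPM in CCL26 libraries, 19.7, 48.8 and 53.8 CPM in CX3CL1 libraries and 48.4, 49.8 and 47.9 CPM in BSA libraries. Its log2 fold change over BSA was 1.38 ± 0.31 (adjusted p = 0.196), or 1.38 ± 0.07 (adjusted p = 3.85e-13) without CX3CL1 replicate 1. Gvin1 and Gm4070 share 96.7% and 92.9% of their stretches with each other and are reported as a sum, which was 12.7, 18.8 and 13.8 CPM in CCL26 libraries, against 5.64, 8.31 and 7.08 CPM in BSA libraries.

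**Figure D4:**
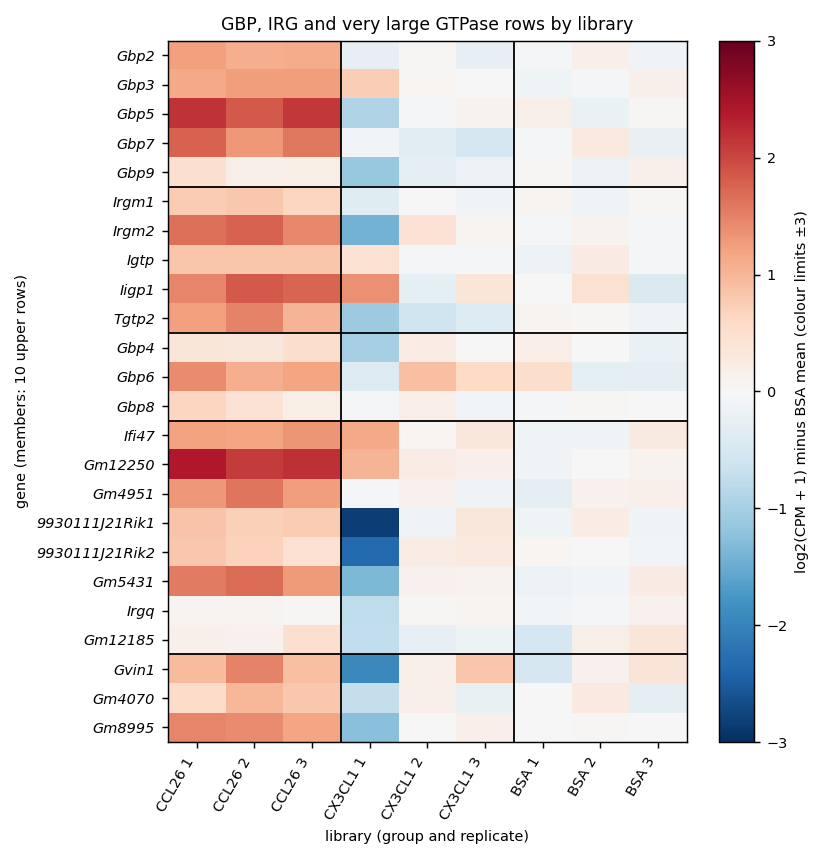
Difference of log2(CPM + 1) from the BSA mean (colour, limits ±3) for the 10 GBP and IRG genes and the 14 further rows of the families, by library. The CCL26 columns are red in nearly every row, CX3CL1 replicate 1 holds both blue rows (9930111J21Rik1, Irgm2) and red ones (Iigp1, Ifi47), and Irgq is near 0 outside that library.

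Genes that act with these GTPases were examined as lists. Of 14 interferon receptor and signalling genes, 2 rose in CCL26 over BSA with all 9 libraries and 10 without CX3CL1 replicate 1, and none fell. Over all tested genes 0.387% and 9.74% were called higher in these fits. Irf1, the transcription factor that binds the response-element core, had 59.5, 61.6 and 64.4 CPM in CCL26 libraries, against 33.0, 29.6 and 31.1 CPM in BSA libraries (log2 fold change 0.99 ± 0.15, adjusted p = 0.0344). Stat2, which joins Irf9 in the complex activated by type I interferon, had 115.9, 111.6 and 111.3 CPM in CCL26 libraries, against 55.8, 55.1 and 51.2 CPM in BSA libraries (log2 fold change 1.06 ± 0.17, adjusted p = 0.0432). Neither gene's groups overlapped. Irf9 (log2 fold change 0.83 ± 0.16, adjusted p = 0.0893) and Ifngr1, a chain of the interferon gamma receptor (0.44 ± 0.11, adjusted p = 0.275), were among the 10 called without CX3CL1 replicate 1. The list's median log2 fold change was 0.27. None of 20 interferon genes had a value in the table, so interferon transcripts were not analysed here.

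Of 7 ubiquitin ligases that act on pathogen vacuoles or bacteria, 1 rose with all 9 libraries and 3 without CX3CL1 replicate 1, against 0.387% and 9.74% of all tested genes. Trim21, a ligase that also binds antibodies in the cytosol, had 28.3, 25.8 and 24.5 CPM in CCL26 libraries, against 14.7, 10.1 and 10.4 CPM in BSA libraries (log2 fold change 1.16 ± 0.18, adjusted p = 0.0362). Rnf213, a giant ligase that tags bacterial lipopolysaccharide, and Rnf31, a linear ubiquitin ligase, were the other 2, at log2 fold changes of 0.90 and 0.44 (adjusted p = 1.41e-14 and 0.00773 without CX3CL1 replicate 1).

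The lists on the route from GBPs to inflammasomes and membranes gave no call with all 9 libraries. Without CX3CL1 replicate 1, 9.74% of all tested genes were called higher and 9.26% lower, and the counts that follow are from that fit. Of 10 genes of the inflammasomes for lipopolysaccharide and DNA, 4 rose and 1 fell, so that the 1 lower gene is about the share of all genes. They include Casp4, which encodes caspase-11 (log2 fold change 0.61, adjusted p = 7.65e-06), and Nlrp3 (0.70, adjusted p = 3.98e-09), while the DNA sensor Aim2 fell by 0.32 on the log2 scale (adjusted p = 0.000404). Il1b was not called, at -0.75 (adjusted p = 0.0522). Of 18 genes for the conjugation of ATG8 proteins, for other autophagy steps and for autophagy adaptors, 2 rose and 5 fell. The 2 higher are near the share of all genes. Of these processes, it is the conjugation of ATG8 proteins that IRGs and GBPs need to find vacuoles. Map1lc3b, an ATG8 gene, fell by 0.41 (adjusted p = 4.39e-08), Atg12 by 0.27 and Atg14 by 0.40 on the log2 scale. Of 6 genes for prenylation, which anchors Gbp2 and Gbp5 to membranes, 1 rose and 1 fell, which is too few genes to set apart from the share of all genes. They were Pggt1b (0.31, adjusted p = 0.000532) and Fnta (-0.56, adjusted p = 2.23e-06). The macrophage markers also stood lower in that fit, with 7 of 10 called lower, none higher and a median log2 fold change of -0.16. Their part in the results for the GTPase genes was not tested.

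**Figure D5:**
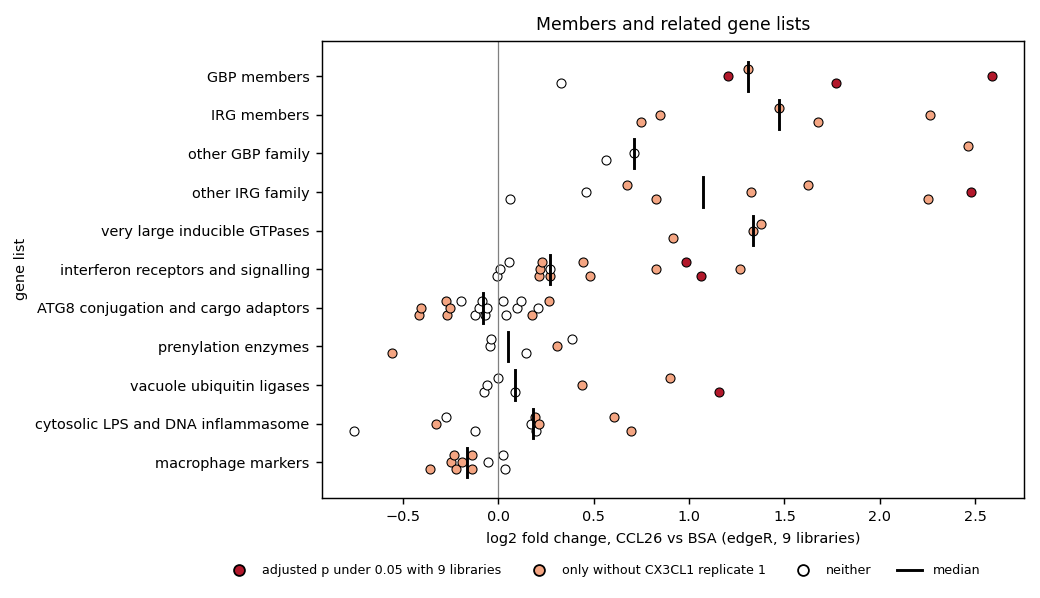
Log2 fold change of CCL26 over BSA (edgeR, 9 libraries) for each measured gene of the listed groups, with list medians as bars. Dark points have an adjusted p below 0.05 with 9 libraries and light points without CX3CL1 replicate 1 only. The GBP, IRG and very large GTPase lists have medians from 0.71 to 1.47, and the other lists from -0.17 to 0.27.

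Genes with the most similar pattern were sought by the root-mean-square difference between a gene's log2(CPM + 1) profile, taken relative to its BSA mean, and the median profile of the 10 genes over 9 libraries. Candidates were 9267 tested genes of at least 5 CPM outside all lists used here, and their median difference was 0.778. Genes of those lists, Stat2 and Irf1 included, were not ranked. The 6 nearest candidates were Maff (0.125), Stx11 (0.157), Arhgef3 (0.169), Birc3 (0.172), Ddx58 (0.189) and Ralgds (0.192). Maff encodes a small bZIP transcription factor, Stx11 a syntaxin of lymphoid and myeloid secretion, Birc3 an inhibitor of apoptosis and Ddx58 the RNA sensor RIG-I. Their log2 fold changes in CCL26 over BSA ran from 0.96 for Ddx58 to 1.24 for Maff.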

How the data were processed

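RNA was extracted with a column kit and libraries were made with NEBNext Ultra II reagents for paired sequencing, per the labels' protocols. The authors deposited 1 table of read counts per gene, whole numbers with no normalization. Per the submitters' processing notes, STAR, featureCounts and MultiQC were used with the builds GRCm38 and mm10. Their versions, settings and order are not given in the sources used here. Each deposited gene reached at least 0.431 CPM in 2 libraries. Columns were matched to libraries by the sample codes in the labels, and 0 were left unmatched. Of 13593 genes, 1343 came without a symbol. GENCODE M21 supplied names for 1333 of those, and 10 had none.

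Genes were filtered with filterByExpr and scaled by TMM. edgeR 4.0.16 (R 4.3.3) fitted all 9 libraries with group as the term, tested the 3 comparisons with the quasi-likelihood F test and adjusted p-values over all tested genes. A fold change has the group named first on top. CPM use TMM-scaled library sizes. Promoter windows are those of RefSeq on GRCm38.p6. Alternatives were DESeq2 1.42.0, limma-voom (limma 3.58.1), DESeq2 size factors, no filter, a replicate block, 6-library fits and leaving out libraries. The scripts were tested on simulated counts. Figures used matplotlib 3.10.9 (Python 3.11.15). The genes and lists were chosen with earlier results of these data known. Named genes are the 10 with values in each library and further rows of their families. For each list up to 4 genes of smallest p in CCL26 over BSA are named. The 6 of most similar pattern come from outside the lists.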

Additional observations from a re-analysis of the deposited data

How the results depend on the processing

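In CCL26 over BSA, 3 of the 10 genes were called higher with all 9 libraries. The count was 9 with DESeq2, 5 with limma-voom, 9 with only the 6 libraries compared and 0 with the replicate block, and DESeq2 size factors or no filter left it at 3. Over all genes, DESeq2 called 167 of 12915 higher, limma-voom 55 of 12915 and the 6-library fit 1172 of 12495. Leaving out libraries gave from 0 to 9. In CCL26 over CX3CL1 the 5 calls became 8 with DESeq2, 0 with the 6 libraries compared and 0 with the replicate block, and stayed 5 with the other settings. Here DESeq2 called 183 of 12915 genes higher and the 6-library fit only 4 of 12466, so its 0 says little about the 10 genes. Leaving out libraries gave from 0 to 10. The replicate numbers did not pair the libraries, with correlations of same-numbered deviations from -0.078 to 0.051. With the block 14 and 11 of all tested genes were called higher in these comparisons. With the block but without CX3CL1 replicate 1, 9 of the 10 genes were called higher in each, against 1292 and 653 of 13245 tested genes. CX3CL1 over BSA gave 0 calls under every setting run.

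No log2 fold change of the 10 genes with CCL26 changed sign. In CX3CL1 over BSA, leaving out libraries gave log2 fold changes from -0.29 to 0.038 for Gbp2, -0.042 to 0.47 for Gbp3, -0.76 to 0.18 for Gbp5, -0.17 to 0.26 for Igtp, -0.65 to 1.40 for Iigp1 and -0.51 to 0.45 for Irgm2, none of them called. With the replicate block and without CX3CL1 replicate 1 they were -0.026 for Gbp3, 0.117 for Gbp5 and -0.105 for Igtp. Scaled by plain library totals, the mean of Igtp with CCL26 was 44.0 CPM in place of 42.3 CPM. The causes were not tested. Depth limits Iigp1, Gbp5 and Tgtp2 most, with as few as 11, 6 and 18 counts in a library.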

Other observations

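Tested protein-coding genes that flank the GBP and IRG clusters were looked at next to them, and other gene types were left aside. The GBP cluster on chromosome 3 spans 144 kb. Pdlim5, 98.3 kb before it, had a log2 fold change in CCL26 over BSA of -0.13 ± 0.24 and Kyat3, 63.0 kb after it, of -0.18 ± 0.41, and neither was called with or without CX3CL1 replicate 1 (adjusted p = 0.146 and 0.802 without it). No other tested protein-coding gene lies inside that cluster. Around the chromosome 11 cluster of Irgm1 and Tgtp2, Trim41 had -0.21 ± 0.17 and Zfp62 0.06 ± 0.18. Trim41 was called lower without CX3CL1 replicate 1 (adjusted p = 0.0283). Psme2b and Olfr56 are tested genes that lie inside that cluster, and their values are not given here. Beside Igtp and Irgm2, Mrpl22 lies 8.2 kb before the cluster and had -0.14 ± 0.23. On the other side 4930438A08Rik, 52.0 kb away, had 0.74 ± 0.36 and was called higher only without CX3CL1 replicate 1 (adjusted p = 0.0438). The GBP cluster on chromosome 5 is flanked by Abcg3 (-0.39 ± 0.25) and Lrrc8b (0.29 ± 0.22). Gm4951 and Iigp1 on chromosome 18 are flanked by Isoc1 (-0.11 ± 0.16), 1531.7 kb before them, and Smim3 (0.30 ± 0.29), 81.6 kb after them. Isoc1 is thus not a close neighbour. None of these flanking genes on chromosomes 5 and 18 was called in either fit.

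Gbp2b, a GBP gene between Gbp3 and Gbp2, had a promoter window with the response-element core but no value in the table and was not analysed here. Among the further IRG rows, the cores of Gm12250 lay at -91 to -82 and -46 to -37 with a gamma-activated site at -61 to -53, while the windows of Ifi47, Gm5431, Irgq and 9930111J21Rik2 held neither motif. Of these 4, Ifi47, Gm5431 and 9930111J21Rik2 were called higher in CCL26 over BSA without CX3CL1 replicate 1, as were 9.74% of all tested genes, and Irgq was not. Gm12185, whose window held both motifs, was not called in either fit. The row 9930111J21Rik1, with a core at 27 to 36 bases after the start, was called higher without CX3CL1 replicate 1.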
